A study of Arabidopsis thaliana with 6 samples.

Results

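Class III peroxidases are a large family of secreted plant heme enzymes, and 5 of its genes known for expression in root hairs, PER7 (AT1G30870), PER8 (AT1G34510), PER27 (AT3G01190), PER44 (AT4G26010) and PER57 (AT5G17820), are described here in roots of Arabidopsis thaliana that carry, lack or overexpress the transcription factor RSL4. The genes were taken by locus from the annotation of the Affymetrix ATH1 array, which gave each of them 1 probe set. They are 5 of the 13286 genes to which a probe set of their own was matched. Root RNA was hybridised to 6 arrays, 2 each for wild-type Col-0, the mutant rsl4-1, labelled a T-DNA knock-out, and 35S::RSL4, in which the viral 35S promoter drives RSL4 in most tissues rather than in root hair cells alone. All 3 genotypes are in the Col-0 background, and per the labels the plants were at stage 3.20 on upright MS plates (pH 5.7, 1% sucrose, 0.5% phytagel) in constant light at 25 °C. The labels do not say whether rsl4-1 and 35S::RSL4 are each 1 line, how many plants were pooled, or whether replicates were grown separately, and a p-value here covers no more than the spread of these samples, possibly a technical spread. The Col-0 labels give cold treatment of the seed as 2 days in 1 entry and 4 days in another, against 4 days for the other genotypes, and that difference cannot be told apart from genotype. A label entry on genetic variation reads knock-out for 35S::RSL4 as well as for rsl4-1, so samples are called by the genotype in their titles.

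Root hairs are tubular outgrowths of single epidermal cells that elongate at their tip, where new wall is laid down and then stiffened behind it. This growth is promoted by RSL4, a transcription factor of the basic helix-loop-helix class. Class III peroxidases in the wall use hydrogen peroxide to cross-link phenolic groups, including the tyrosines of extensins, which stiffens the wall, and in another reaction cycle they form reactive oxygen that can loosen it. NADPH oxidases at the plasma membrane make the superoxide from which that hydrogen peroxide comes.

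The deposited values are MAS5 signals, a brightness on a linear scale that the authors set to the same trimmed mean on every array, 100.01. A signal depends on the probes as well as on the transcript, so each gene is compared with itself across arrays and not with other genes. Differences were tested with limma on log2 signals over 14170 probe sets at once, and "rose" and "fell" are used only at an adjusted p under 0.05. The probe sets tested were those above the array's own 40th percentile, a signal of 20.3 to 22.4, on at least 2 of the 6 arrays. All 5 peroxidases passed on all 6 arrays, and their lowest signals were 4.13 times (PER8), 6.60 times (PER7) and at least 24.6 times (PER27, PER44 and PER57) that level. Across probe sets, which are not independent of each other, the log2 signals of 2 arrays correlated at 0.982 to 0.986 within a genotype and at 0.957 to 0.972 between genotypes. The annotation matched no probe set to RSL4, and the labels were therefore not checked against the level of the targeted gene.

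In rsl4-1, relative to Col-0, PER7 and PER8 fell, PER27 rose, and PER44 and PER57 did not pass the test. Of all tested probe sets 3.81% were called in this comparison, 2.15% as lower and 1.67% as higher. In 35S::RSL4, again relative to Col-0, all 5 genes rose and none fell, against 6.27% of tested probe sets called, 3.39% as higher and 2.88% as lower. No member was lower there at an unadjusted p under 0.05 either. Between 35S::RSL4 and rsl4-1, 4 of the 5 were higher in 35S::RSL4 and PER27 did not pass, against 5.46% called, 3.19% as higher and 2.27% as lower. The comparisons share arrays, so they are not independent of each other. The 5 genes and the gene lists used below were chosen with earlier results of these data known. The shares over all probe sets are therefore given for scale and not as a test. Of all probe sets tested, 236 rose and 304 fell in rsl4-1 (43.7% higher), and 480 rose and 408 fell in 35S::RSL4 (54.1% higher). With each array centred on its median these became 315 and 262 (54.6% higher) and 718 and 261 (73.3% higher), a setting under which the calls of all 5 peroxidases against Col-0 stood.

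**Figure D1:**
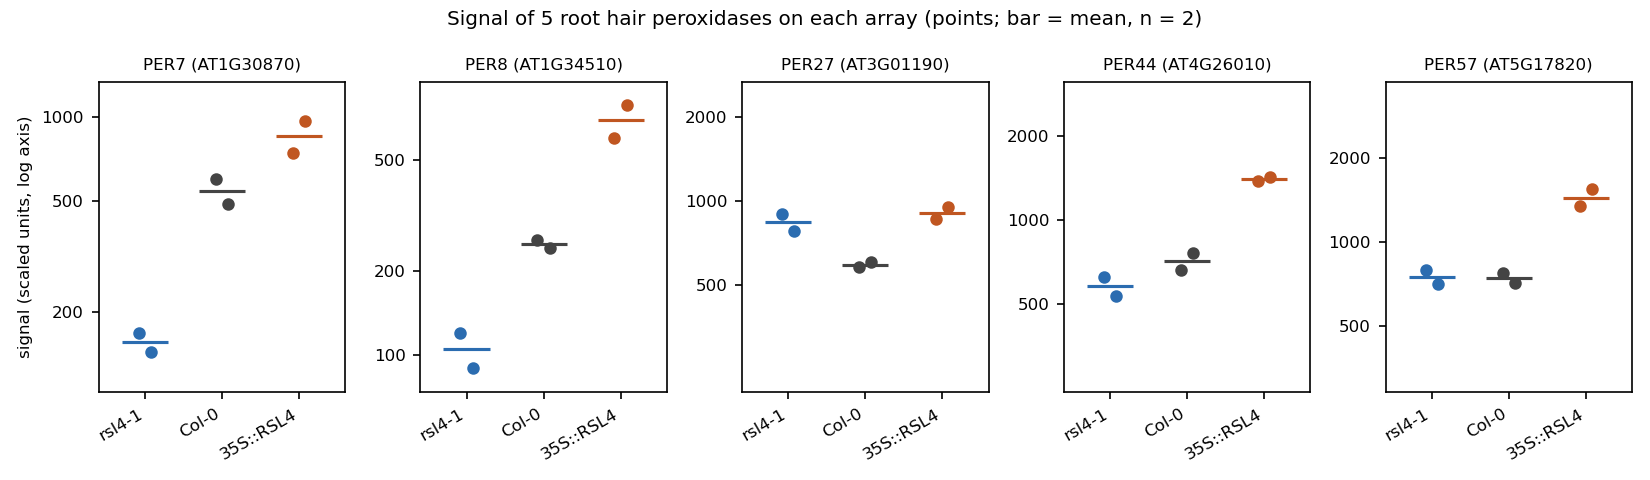
Signal (MAS5 scaled units, log axis) of each of the 5 genes on each array, with points for arrays and a bar for the mean of 2 arrays; each panel has its own axis, and all axes span the same ratio. PER7 and PER8 are ordered rsl4-1, Col-0, 35S::RSL4 without overlap, PER44 and PER57 are high in 35S::RSL4, and PER27 is lowest on the 2 Col-0 arrays.

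PER7 followed the order rsl4-1, Col-0, 35S::RSL4. Its signal was 168 and 144 on the rsl4-1 arrays, 596 and 486 on the Col-0 arrays, and 743 and 962 on the 35S::RSL4 arrays, and no array of one genotype reached into the range of another. The mean was 156 ± 16.9 in rsl4-1, 541 ± 77.5 in Col-0 and 852 ± 155 in 35S::RSL4 (SD, n = 2 each). Relative to Col-0, PER7 fell 3.47-fold in rsl4-1 (log2 difference -1.80, SE 0.15, 95% interval -2.12 to -1.47, limma adjusted p = 2.3e-06). In 35S::RSL4 it rose 1.57-fold over Col-0 (log2 difference 0.65, SE 0.15, interval 0.33 to 0.97, adjusted p = 0.019), the smaller of the 2 shifts on the log2 scale. The rise was no longer called when the second replicate of Col-0 or of 35S::RSL4 was left out (adjusted p = 0.17 for each), when dim probe sets were kept in (0.064) or when the variance had no trend with intensity, a constant prior (0.082). The fall stood in all 15 alternatives. In RNA of whole roots, fewer root hair cells and less RNA per cell cannot be told apart.

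PER8 followed the same order, with a larger rise. PER8 and PER57 are known from Arabidopsis leaves as targets that the MYB-like repressor KUA1 holds down during cell expansion. Its signal was 120 and 89.8 in rsl4-1, 259 and 242 in Col-0, and 601 and 791 in 35S::RSL4. The genotypes again did not overlap. The means were 105 ± 21.6, 251 ± 12.3 and 696 ± 134 (SD, n = 2 each). PER8 fell 2.41-fold in rsl4-1 (log2 difference -1.27, SE 0.16, interval -1.62 to -0.92, adjusted p = 0.00021) and rose 2.75-fold in 35S::RSL4 (log2 difference 1.46, SE 0.16, interval 1.11 to 1.81, adjusted p = 6.3e-05). Between 35S::RSL4 and rsl4-1 PER8 differed 6.63-fold (log2 difference 2.73, adjusted p = 2.3e-08) and PER7 5.45-fold (log2 difference 2.45, adjusted p = 2.8e-08). These calls of PER8 and PER7 stood in all 15 alternatives, as did both calls of PER8 against Col-0.

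PER44, which is known to promote root hair growth in Arabidopsis together with other class III peroxidases, was high in 35S::RSL4. Its signal was 1381 and 1429 there, 667 and 765 in Col-0, and 624 and 535 in rsl4-1. The mean rose 1.97-fold over Col-0, from 716 ± 69.7 to 1405 ± 33.8 (log2 difference 0.98, SE 0.13, interval 0.71 to 1.24, adjusted p = 0.00023), and was 2.43-fold above the rsl4-1 mean of 580 ± 63.1 (log2 difference 1.28, adjusted p = 4.0e-06). Between rsl4-1 and Col-0 the arrays did not overlap, but the difference did not pass (log2 difference -0.31, interval -0.57 to -0.04, unadjusted p = 0.028, adjusted p = 0.23). In none of the 15 alternatives did it pass, with adjusted p from 0.15 to 0.71. The order of the levels was therefore 35S::RSL4 above both other genotypes, with rsl4-1 and Col-0 as neighbours not told apart by the test.

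PER57 also rose in 35S::RSL4, and its levels in rsl4-1 and Col-0 lay together. The signal was 1339 and 1539 in 35S::RSL4, 769 and 712 in Col-0, and 791 and 705 in rsl4-1. Both Col-0 arrays thus lay between the 2 rsl4-1 arrays. The mean rose 1.94-fold, from 740 ± 40.8 in Col-0 to 1439 ± 142 in 35S::RSL4 (log2 difference 0.96, SE 0.12, interval 0.69 to 1.22, adjusted p = 0.00023), and was 1.92-fold above the rsl4-1 mean of 748 ± 60.6 (adjusted p = 0.0001). Between rsl4-1 and Col-0 the log2 difference was 0.01 (interval -0.25 to 0.28, adjusted p = 0.97), which corresponds to 0.842 to 1.21 times the Col-0 level. The sign of that small difference turned with quantile normalization and without Col-0 replicate 2 or rsl4-1 replicate 1 (-0.011, -0.042 and -0.069).

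PER27 rose in both lines relative to Col-0. Its signal was 581 and 602 on the Col-0 arrays, 899 and 782 on the rsl4-1 arrays, and 862 and 954 on the 35S::RSL4 arrays. The Col-0 arrays were the 2 lowest, and the arrays of the other genotypes overlapped. PER27 rose 1.42-fold in rsl4-1, from 592 ± 15.1 to 840 ± 82.6 (log2 difference 0.50, SE 0.12, interval 0.24 to 0.77, adjusted p = 0.031). It rose 1.53-fold in 35S::RSL4, to 908 ± 65.4 (log2 difference 0.62, SE 0.12, interval 0.35 to 0.88, adjusted p = 0.0070). Both rises are measured against the same 2 Col-0 arrays. Between 35S::RSL4 and rsl4-1 the log2 difference was 0.11 (interval -0.15 to 0.37, adjusted p = 0.68).

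Both rises of PER27 depended on the arrays and settings used. The rise in rsl4-1 was lost when any of the 4 arrays compared was left out, with adjusted p of 0.20 and 0.14 for the Col-0 arrays and 0.27 and 0.068 for the rsl4-1 arrays. It was lost also with dim probe sets kept in (adjusted p = 0.093) and with the constant prior (0.13), so that 9 of 15 alternatives kept the call. Its rise in 35S::RSL4 was lost when Col-0 replicate 1 (adjusted p = 0.084) or 35S::RSL4 replicate 2 (0.070) was left out and with the constant prior (0.053). The log2 difference stayed between 0.40 and 0.60 in rsl4-1 and between 0.54 and 0.69 in 35S::RSL4 over these alternatives. Without 35S::RSL4 replicate 2 the count of peroxidases higher in 35S::RSL4 than in Col-0 went from 5 to 3, PER7 and PER27 being the ones lost.

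Since PER27 was lowest in Col-0, the mean of rsl4-1 and 35S::RSL4 was also set against Col-0 in the same fit. This contrast was chosen after the values were seen and restates what prompted it, so it is given as a description and supports nothing further. The log2 difference was 0.56 for PER27, 0.49 for PER57, 0.34 for PER44, 0.10 for PER8 and -0.57 for PER7. For PER57 (0.01 and 0.96 in the lines) and PER7 (-1.80 and 0.65) the mean describes neither line. By the threshold 2 of the 5 counted as higher and 1 as lower, beside 4.26% of all tested probe sets, 2.36% higher (335) and 1.89% lower (268), or 55.6% higher; with median centring these were 507 and 198, or 71.9% higher. The count of 2 became 0 without Col-0 replicate 1 or Col-0 replicate 2 and 1 without rsl4-1 replicate 1 or without 35S::RSL4 replicate 2. The count of 1 became 0 without either Col-0 array, the second rsl4-1 array or the first 35S::RSL4 array.

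**Figure D2:**
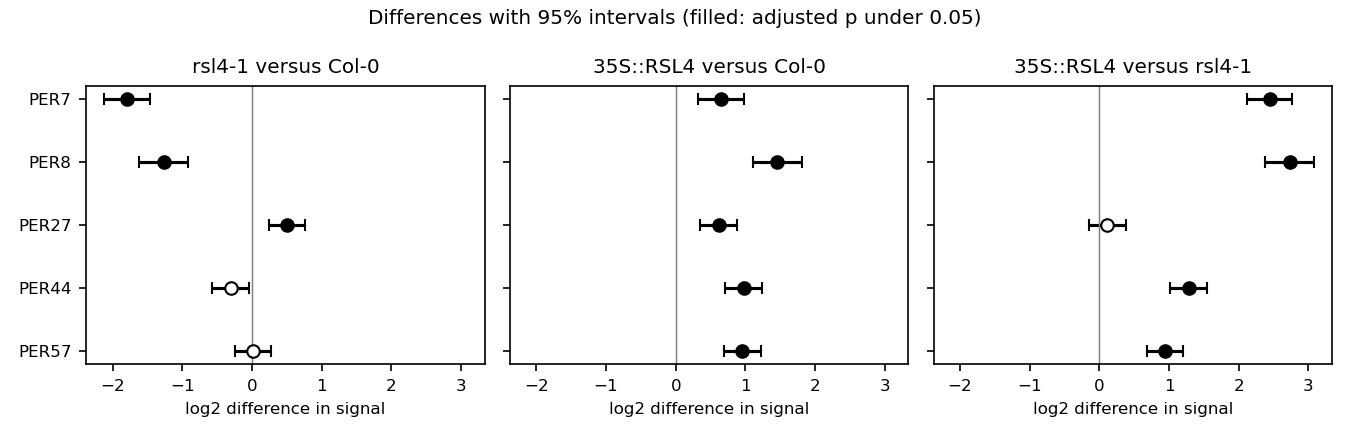
Log2 difference in signal of the 5 genes in each of the 3 comparisons, with 95% intervals from limma; filled points have an adjusted p under 0.05. In 35S::RSL4 versus Col-0 all 5 intervals lie above 0, from 0.65 for PER7 and 0.62 for PER27 to 1.46 for PER8, while in rsl4-1 versus Col-0 they run from -1.80 to 0.50.

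The 2 genes that fell in rsl4-1 are also the 2 that lie on the chromosome of RSL4. In the order of annotated loci of the TAIR10.1 gene table, PER7 is 425 and PER8 941 loci from RSL4 on chromosome 1, on the same side, while PER27 is on chromosome 3, PER44 on chromosome 4 and PER57 on chromosome 5. Calls between rsl4-1 and Col-0 were frequent around RSL4. Within 500 loci of it 35 of 207 tested probe sets were called (16.9%), PER7 being 1 of them. In the next 500 loci on the side of PER7 and PER8 14 of 77 were called (18.2%), PER8 being 1 of them. At all other placed loci 215 of 7327 were called (2.93%). Of those 14, 11 were lower in rsl4-1, PER8 included. Between 35S::RSL4 and Col-0 the corresponding shares were 3.86%, 6.49% and 5.55%, and between 35S::RSL4 and rsl4-1 18.8%, 20.8% and 4.50%. The part of chromosomal position in the falls of PER7 and PER8, and in their differences between 35S::RSL4 and rsl4-1, was not tested.

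Up to 10 tested probe sets on each side of each gene were read as its neighbours, whatever their distance. The 20 tested genes around PER8 ran from 47 loci before it to 134 loci after it. Of these 5 were called in rsl4-1 versus Col-0, all 5 with a lower fitted value in rsl4-1. For 1 of the 5, AT1G34330, no size is given and the direction is uncertain. Both of its rsl4-1 arrays and Col-0 replicate 1 (19.5) were below the 40th percentile, with Col-0 replicate 2 at 23.0. The 20 probe sets around PER7, where AT1G31050 had more than 1, ran from 44 loci before it to 48 loci after it. Of these 3 were called, 2 lower and 1 higher. For 1 of the 2 lower, AT1G30990, only the direction is given, since both rsl4-1 arrays were below the 40th percentile. PER44 had 1 called gene of 20, PER57 had 0 of 20 and PER27 had 0 of 13, with limma (at an unadjusted p under 0.05 there were 1 near PER57 and 2 near PER27). The called gene near PER44, AT4G25790, lies 28 loci from it and fell in rsl4-1 (log2 difference -1.30, adjusted p = 3.2e-05), where PER44 did not pass. In 35S::RSL4 versus Col-0 the called neighbours numbered 1 for PER7, 2 for PER8, 0 for PER27, 1 for PER44 and 0 for PER57 (at an unadjusted p under 0.05, 2 each for PER27 and PER57). In 35S::RSL4 versus rsl4-1 they numbered 5 for PER7, 5 for PER8, 0 for PER27, 2 for PER44 and 1 for PER57. At an unadjusted limma p under 0.05 there were 4 near PER27. Of all tested probe sets 3.81% were called in rsl4-1 versus Col-0, 6.27% in 35S::RSL4 versus Col-0 and 5.46% in 35S::RSL4 versus rsl4-1.

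**Figure D3:**
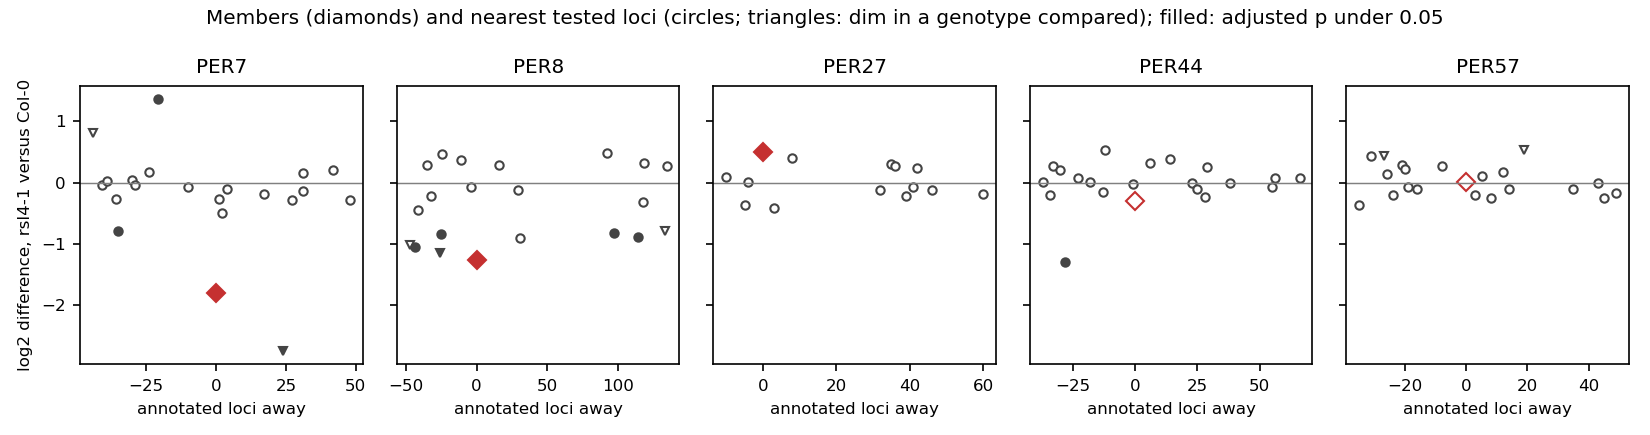
Log2 difference between rsl4-1 and Col-0 of each peroxidase (diamond) and of up to 10 tested probe sets on each side (circles and triangles). The axis is distance counted in annotated loci, and filled symbols have a limma adjusted p under 0.05. Triangles mark genes that were dim (under the 40th percentile) on both arrays for a genotype compared, whose plotted values are not measured sizes; they include the lowest called neighbours of PER7 (AT1G30990) and PER8 (AT1G34330).

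The profile of each peroxidase over the 6 arrays was also set beside those of all other tested probe sets with 1 gene, 7644 for each, by the root mean square (RMS) of the difference between log2 profiles centred on their own means. This describes likeness over 3 genotypes of 2 arrays, and the arrays are shared by all genes. Nearest to PER7, whose own RMS spread was 1.05, came the tau-class glutathione transferase gene GSTU25 (0.088), then PER35, another class III peroxidase (0.127), and TET12, a tetraspanin (0.160). TET12 was below the 40th percentile on both rsl4-1 arrays (10.8 and 8.84), so its distance and rank rest partly on values not above background. GSTU25 had a signal of 277 and 271 in Col-0, 84.2 and 75.5 in rsl4-1, and 360 and 512 in 35S::RSL4. Nearest to PER8, with a spread of 1.13, came AT1G34330 (0.144), AT4G25790 (0.216) and AT4G30320 (0.265). AT1G34330 is annotated as a transcribed pseudogene and lies 26 loci from PER8, but its signal on the rsl4-1 arrays (10.8 and 8.40) was likewise below that level, so its place as the nearest is uncertain. AT4G25790 is the gene 28 loci from PER44 named above.

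AT3G46700 was among the 3 nearest profiles of PER44 (0.120) and of PER57 (0.079), with signals of 128 and 135 in Col-0, 134 and 119 in rsl4-1, and 251 and 285 in 35S::RSL4. The others nearest to PER44 were AT1G08340 (0.064) and AT4G31250 (0.118), against a spread of 0.553 for PER44, and those nearest to PER57 were AT4G04460 (0.091) and AT1G78070 (0.102), against 0.455. PER27 varied least, with a spread of 0.278, and had as nearest profiles AT2G47550 (0.056), AT4G10280 (0.062) and AT5G67460 (0.062). Among the peroxidases themselves, the smallest distance was that of PER44 and PER57 (0.185), followed by PER27 and PER57 (0.344) and by PER7 and PER8 (0.345). PER27 and PER44 were 0.491 apart, PER44 was 0.619 from PER8 and 0.662 from PER7, and PER57 was 0.758 from PER8 and 0.794 from PER7. PER27 was 1.098 from PER7 and 1.095 from PER8. A rank depends on the gene it is counted from: PER7 was at rank 7624 of 7644 from PER27, and PER27 at rank 4584 from PER7 and at rank 500 from PER57. PER57 was at rank 3681 from PER27, and their distance of 0.344 was above the spread of PER27 (0.278). PER8 was at rank 18 from PER7, and PER7 at rank 10 from PER8.

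**Figure D4:**
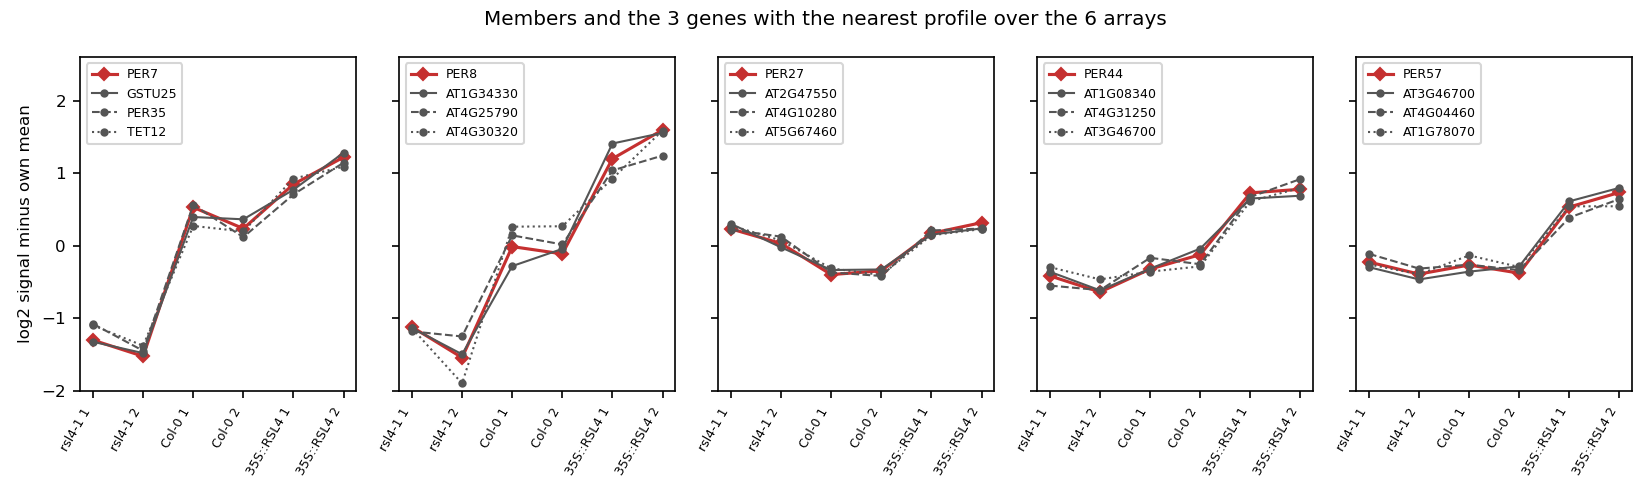
Log2 signal of each peroxidase (red) and of its 3 nearest profiles (grey), centred on the gene's own mean over the 6 arrays, which are ordered by genotype; lines only join the points of a gene. PER7 and PER8 run from the lowest values in rsl4-1 to the highest in 35S::RSL4, PER44 and PER57 step up in 35S::RSL4, and PER27 dips in Col-0; the rsl4-1 points of TET12 and AT1G34330 come from signals below the 40th percentile.

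The rest of the family gives the setting for these 5. Of 73 class III peroxidase genes 55 had a matched probe set and 37 were tested, and 18 with a matched probe set were below the filter. Among the 32 tested outside the 5, 6 rose and 1 fell in rsl4-1, so 21.9% were called, against 3.81% of all tested probe sets. The median log2 difference was 0.21 against -0.03 over all tested probe sets. In 35S::RSL4 8 rose and 2 fell relative to Col-0 (31.25% called against 6.27%), with a median of 0.25 against -0.06. Between 35S::RSL4 and rsl4-1 4 were higher and 6 lower (31.25% called against 5.46%), with a median of -0.04, the same as over all tested probe sets. These counts depend on single arrays: without rsl4-1 replicate 2 the rises in rsl4-1 numbered 3, and without Col-0 replicate 1, Col-0 replicate 2 or 35S::RSL4 replicate 2 the rises in 35S::RSL4 numbered 3, 4 or 2. The 6 lower in 35S::RSL4 than in rsl4-1 became 2 without rsl4-1 replicate 1, rsl4-1 replicate 2 or 35S::RSL4 replicate 1, and the 4 higher became 2 without rsl4-1 replicate 2 or 35S::RSL4 replicate 2. Without Col-0 replicate 1 the falls in 35S::RSL4 went from 2 to 1.

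PER35 (AT3G49960) was the peroxidase outside the 5 that fell in rsl4-1. Its signal went from 478 and 351 in Col-0 to 153 and 119 in rsl4-1 (log2 difference -1.60, adjusted p = 4.3e-05), with 529 and 716 in 35S::RSL4 (log2 difference 0.58 from Col-0, adjusted p = 0.062). It lies on chromosome 3. PER71 (AT5G64120) rose in 35S::RSL4, from a mean of 58.3 in Col-0 to 239 (log2 difference 2.05, adjusted p = 1.6e-06), and had a log2 difference of -0.40 in rsl4-1 that did not pass. PER69 (AT5G64100), PER72 (AT5G66390) and PER47 (AT4G33420) rose in 35S::RSL4 as well, with log2 differences of 0.91, 0.76 and 0.53 against 0.31, 0.15 and 0.12 in rsl4-1, which did not pass. Relative to rsl4-1, PER71, PER35, PER72 and PER69 were higher in 35S::RSL4, by 2.45, 2.19, 0.61 and 0.60 on the log2 scale.

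PER66 (AT5G51890), PER62 (AT5G39580), PER56 (AT5G15180) and PER42 (AT4G21960) had the signs of PER27. Their log2 differences from Col-0 were 1.43, 0.73, 0.98 and 0.46 in rsl4-1 and 1.16, 0.81, 0.64 and 0.37 in 35S::RSL4, each of which passed and each of which is measured against the same Col-0 arrays. PER66 and PER47 are known for lignification of xylem vessels in Arabidopsis. PER25 (AT2G41480) rose in rsl4-1 by 1.07 and had 0.37 in 35S::RSL4, which did not pass. PER59 (AT5G19890) had the opposite signs to PER7 and PER8, with a rise of 1.06 in rsl4-1 and a fall of 0.98 on the log2 scale in 35S::RSL4. PER65 (AT5G47000) was, relative to Col-0, at least 2.75-fold lower in 35S::RSL4, being below the 40th percentile on both 35S::RSL4 arrays (adjusted p = 0.00013), and had a log2 difference of 0.03 in rsl4-1. Lower in 35S::RSL4 than in rsl4-1 were PER59, PER65 (at least 2.80-fold), PER63 (AT5G40150), PER25, PER38 (AT4G08780) and PER30 (AT3G21770), of which the fitted log2 differences were -2.04 for PER59, -0.83 for PER63, -0.71 for PER25, -0.68 for PER38 and -0.44 for PER30.

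Of the 27 calls of these 15 other peroxidases 11 stood in every alternative: those of PER66, PER56, PER25 and PER35 in rsl4-1, those of PER69, PER71 and PER65 in 35S::RSL4 versus Col-0, and those of PER59, PER71, PER65 and PER35 in 35S::RSL4 versus rsl4-1. PER59 lost its call in rsl4-1 with the second rsl4-1 array left out (adjusted p = 0.069) and in 35S::RSL4 with the first Col-0 array left out (0.058), and PER66 lost its call in 35S::RSL4 with the second 35S::RSL4 array left out (0.052). In rsl4-1 the calls of PER62 and PER42 ended without either array of either genotype compared, with adjusted p up to 0.27 for each. In 35S::RSL4 versus Col-0 those of PER62 and PER56 were lost without either Col-0 array or the second 35S::RSL4 array (adjusted p up to 0.15 and 0.10). There PER72 lost its call without the first Col-0 or the second 35S::RSL4 array (0.075 and 0.082), PER47 without any array but 35S::RSL4 replicate 1 (up to 0.24) and PER42 without any array (up to 0.28). In 35S::RSL4 versus rsl4-1 those of PER72 and PER69 were lost without the second array of either line (up to 0.29 and 0.089), and those of PER25, PER63, PER38 and PER30 without either rsl4-1 array or the first 35S::RSL4 array (up to 0.14, 0.34, 0.21 and 0.24). PER63 and PER30 lost theirs also without either Col-0 array, and PER38 without 35S::RSL4 replicate 2. Besides these arrays, at least 1 other setting removed calls of PER62, PER42, PER47, PER72, PER69, PER63, PER38 and PER30.

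**Figure D5:**
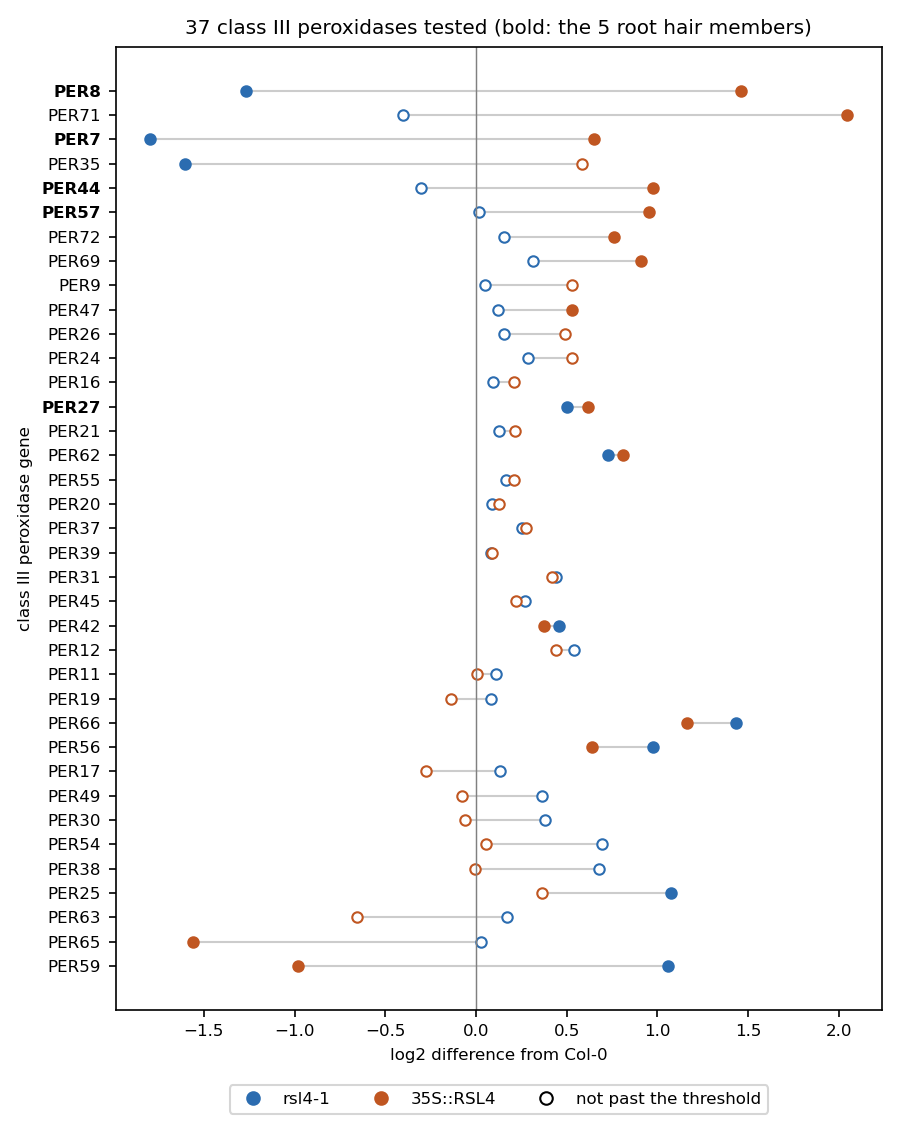
Log2 difference from Col-0 of the 37 tested class III peroxidase genes in rsl4-1 (blue) and 35S::RSL4 (orange), ordered by the difference between the lines; filled points have an adjusted p under 0.05 and the 5 root hair genes are in bold. PER8, PER7 and PER35 have their rsl4-1 points at -1.27, -1.80 and -1.60, and PER59 at the foot has the opposite signs; the PER65 point in 35S::RSL4 is a fitted value of a probe set that was dim there.

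The wall proteins on which root hair peroxidases can act were read from the same fit. Of 18 extensin genes 10 had a matched probe set and 7 were tested. Of these 4 fell in rsl4-1, 2 rose in 35S::RSL4, and 6 were higher in 35S::RSL4 than in rsl4-1. Over all tested probe sets 3.81%, 6.27% and 5.46% were called in these comparisons. The median log2 differences were -0.92, 0.48 and 1.48, against -0.03, -0.06 and -0.04 over all tested probe sets. In rsl4-1 the extensin genes AT4G08410, AT5G06630, HRGP1 and AT3G54580 fell by 1.26, 1.16, 0.91 and 0.92 on the log2 scale, the last not with the first array of Col-0 or of rsl4-1 left out (adjusted p = 0.070 and 0.084). The probe sets of the first 3 can cross-hybridise with related genes, and their signals are not independent. In 35S::RSL4 AT4G08410 and HRGP1 rose by 0.66 and 0.48, and both calls were lost without either Col-0 array or the second 35S::RSL4 array (adjusted p up to 0.13 and 0.20), that of HRGP1 also with quantile normalization, with dim probe sets kept in and with the constant prior.

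Of 11 genes for wall loosening and root hair wall structure, 3 had a matched probe set. These are also the 3 of 6 root hair markers with a matched probe set. The expansin gene EXPA7 fell by 0.69 in rsl4-1 and rose by 1.44 in 35S::RSL4, and EXPA18 fell by 0.60 and rose by 0.79 (log2 scale). XTH26, for a xyloglucan-modifying enzyme, had -0.64 in rsl4-1 (adjusted p = 0.078) and rose by 1.51 in 35S::RSL4. The fall of EXPA7 was lost without either Col-0 array or the second rsl4-1 array (adjusted p up to 0.21), that of EXPA18 without any of the 4 arrays compared (up to 0.22), and both with the constant prior. The summed signal of the 3 root hair markers ranged from 393 to 417 on the Col-0 arrays, from 242 to 283 on the rsl4-1 arrays and from 810 to 883 on the 35S::RSL4 arrays, so it moved with PER7 and PER8 in both lines and with PER44 and PER57 in 35S::RSL4. None of the 3 was at 0. Their part in the results was not tested.

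Genes for the supply and removal of hydrogen peroxide were sparsely covered. Of 10 NADPH oxidase genes 2 were tested: RBOHG rose in 35S::RSL4 (log2 difference 0.63, adjusted p = 0.015; 0.089 to 0.12 without either Col-0 array or the first 35S::RSL4 array) and had 0.36 in rsl4-1 (adjusted p = 0.21), while RBOHE had 0.24 and -0.13 and passed in neither. RBOHC, the NADPH oxidase best known from root hairs, was not analysed here. Of 19 genes for catalases and for ascorbate and glutathione peroxidases only SAPX, a stromal ascorbate peroxidase, was tested; its log2 differences were 0.09 in rsl4-1 and 0.09 in 35S::RSL4, with adjusted p of 0.80 and 0.71. None of 7 superoxide dismutase genes had a matched probe set.

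Other tissues were checked for through their markers. No probe set was matched to markers of hairless epidermis, endodermis, stele or root cap. Of 6 shoot markers 2 had a matched probe set, RCA and LHCB4.1, neither at 0. Their summed signal ranged from 324 to 387 in Col-0 against 258 in both rsl4-1 arrays and 251 to 257 in 35S::RSL4. RCA did not pass against Col-0 in either line. LHCB4.1, a light-harvesting protein gene, was lower in both lines (log2 difference -0.67, adjusted p = 0.016, in rsl4-1 and -0.70, adjusted p = 0.0093, in 35S::RSL4). The rsl4-1 call was lost without any of the 4 arrays compared (adjusted p up to 0.21) or with the constant prior, and the 35S::RSL4 call without the first Col-0 or the second 35S::RSL4 array (up to 0.16). The Col-0 arrays thus stood apart in the summed signal of these 2 shoot markers as they did for PER27, in the opposite direction. The part of this in the rises of PER27 was not tested.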

How the data were processed

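The deposited values are linear intensities. Per the submitters' processing notes the authors used MAS5 and GCOS, of unstated version. With 2% trimmed off each end the mean was 100.01 on every array, and this scaling was kept. Global scaling cannot show a change of total RNA, and the number of arrays (2 per genotype) limits precision.

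The table held 22810 probe sets, among them 64 controls that were dropped; 14170 of the other 22746 were tested. Genes came from the platform annotation (1 gene for 13513 probe sets, several for 503, 8730 not listed here) and were matched to the TAIR10.1 RefSeq gene table (13436), which gave the order of loci. A gene without a matched probe set may still have one on the array among those not listed or listed with several genes. No build is named with the values, so no coordinates are given. The PER names of family members outside the 5 follow the standard numbering of the family.

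Log2 signals, computed from the deposited intensities, went into 1 fit of all 6 arrays with limma 3.58.1 under R 4.3.3 (lmFit, eBayes with intensity trend, 3 residual and 13.2 prior degrees of freedom). Tests are two-sided with Benjamini-Hochberg adjustment over all tested probe sets and a threshold of 0.05; the median SE was 0.166. Folds were taken from the log2 differences. Where both arrays of a genotype were under the 40th percentile, a lower bound is given in place of the fold. The fit was tested on simulated data.

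Replicate numbers in the titles showed no strong shared effect across genotypes: replicate differences correlated at -0.19, 0.12 and -0.08 between genotypes. This cannot tell whether samples of the same number were grown or processed together, and the main fit did not pair them. The members and gene lists were chosen with earlier results of these data known. Named are the 5 members, every other class III peroxidase called in any comparison, up to 4 called genes of each other list by adjusted p, and the 3 nearest profiles per member. A neighbour named for its call (AT4G25790) was chosen after its values were seen. Tried as alternatives were leaving out each array, a replicate block, a fit of only the 2 genotypes compared, median centring, quantile normalization, no filter, a filter to the upper 60% by mean signal, an offset at the 20th percentile, no intensity trend (a constant variance prior), and locus means over probe sets.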

Additional observations from a re-analysis of the deposited data

How the results depend on the processing

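With 2 arrays per genotype, an array left out leaves a lone array that is assumed to vary like the others. Peroxidases of the 5 called higher in rsl4-1 numbered 1, but 0 with no filter and 0 with no intensity trend, and 0 to 1 with an array left out; those called higher in 35S::RSL4 numbered 5, but 3 with no intensity trend and 3 to 5 with an array left out. With no filter PER7 also lost its rise in 35S::RSL4 versus Col-0 (limma adjusted p = 0.064). The 2 falls in rsl4-1 and the 4 calls between 35S::RSL4 and rsl4-1 stood in every alternative run. Of the 32 other peroxidases, those higher in rsl4-1 ranged from 3 to 6 with an array left out (1 lower throughout). In 35S::RSL4 versus Col-0, 5 were higher with no filter against 8, and 2 to 9 with an array left out, with 1 to 2 lower. In 35S::RSL4 versus rsl4-1, 2 were higher with no intensity trend and 2 to 4 with an array left out, and 3 were lower with median centring, 3 with no filter and 2 to 6 with an array left out, against 4 and 6. For the mean of both lines against Col-0 the 5 peroxidases had 2 higher and 1 lower, but 1 and 0 with no filter, 0 and 0 with no intensity trend, and 0 to 2 and 0 to 1 with an array left out. PER63, PER38 and PER30 also lost their calls as lower in 35S::RSL4 than in rsl4-1 with no intensity trend (limma adjusted p = 0.063, 0.069 and 0.14). The cause of these shifts was not tested.

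Signs turned in 19 values, none past the threshold. PER57 in rsl4-1 had -0.011 with quantile normalization, and from -0.069 to 0.097 with an array left out. PER38 in 35S::RSL4 versus Col-0 had 0.10 with quantile normalization and 0.068 with median centring, and PER30 had 0.011 with median centring. With an array left out, PER72 in rsl4-1 ranged from -0.042 to 0.35, PER65 from -0.048 to 0.10, PER63 from -0.0021 to 0.35, PER38 in 35S::RSL4 from -0.24 to 0.23, PER30 there from -0.18 to 0.056, and, in 35S::RSL4 versus rsl4-1, PER66 from -0.73 to 0.19, PER62 from -0.13 to 0.30 and LHCB4.1 from -0.13 to 0.057. PER8 in the mean of both lines ranged from -0.010 to 0.20. Of the other values for single genes 1209 kept their sign and side of the threshold, 139 lost the call and 8 gained it.

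Over all probe sets, no filter gave 107 higher and 158 lower in rsl4-1 versus Col-0, 230 and 174 in 35S::RSL4 versus Col-0, and 301 and 181 in 35S::RSL4 versus rsl4-1; no intensity trend gave 136 and 282 higher against Col-0 (rsl4-1 and 35S::RSL4). With an array left out these ranged from 60 to 236 higher and 117 to 287 lower, 126 to 423 and 86 to 339, and 247 to 392 and 102 to 261. For the mean of both lines they ranged from 68 to 328 and 46 to 236, with 106 and 102 for no filter and 151 higher for no intensity trend. With the replicate number as a replicate block, which the data do not bear out as a pairing, the calls of the 5 peroxidases numbered 1 higher and 2 lower in rsl4-1, 5 higher in 35S::RSL4 and 4 higher between the lines, as without it. Over all probe sets the block gave 230 higher and 290 lower, 444 and 358, and 429 and 308.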
